A study of Mus musculus with 18 samples.

Results

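The constitutive proteasome subunits described here are the 31 genes Psma1 to Psma7, Psmb1 to Psmb7, Psmc1 to Psmc6 and Psmd1, Psmd2, Psmd3, Psmd4, Psmd6, Psmd7, Psmd8 and Psmd11 to Psmd14. They were chosen by symbol as subunits of the 20S core and of the 19S cap, without the inducible immunoproteasome subunits, and all 31 were found among the 23453 gene symbols of the count table. All 31 also passed the filter on low counts in every comparison.

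The study silenced Hgs, which encodes the endosomal sorting protein Hrs, in B16F10 cells, a melanoma line from C57BL/6 mice, and its title places Hrs next to proteostasis and interferon signalling. Cells were infected with lentivirus carrying a short hairpin RNA in the pLKO.1 vector, either against Hgs (shHrs) or scrambled (shCTL), and were kept under puromycin or blasticidin for 5 days. The control cells therefore also carried a hairpin and a selection marker. Cultured cells came in 2 batches, each with 2 shCTL and 2 shHrs libraries, and tumours of the same kinds of cells, grown in immunocompetent female C57BL/6 mice aged 6 to 8 weeks, gave 5 shCTL and 5 shHrs libraries. The labels do not say whether several hairpins or clones were used, or whether replicates of the cultures were grown separately, so the p-values cover only library-to-library spread, part of which may be technical.

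The proteasome degrades proteins that carry a ubiquitin chain. Its barrel-shaped core is built of rings of alpha subunits, which form the gate, and rings of beta subunits, 3 of which cut peptide bonds, while the cap recognises, deubiquitinates and unfolds substrates with the help of its ATPases. The subunits are needed in fixed proportions, and their genes are known to be induced together by the transcription factor Nfe2l1 when proteasome activity falls short. Cultured melanoma cells, like other dividing cells, express the whole set constitutively.

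Promoter sequence is shown for 4 members around which the culture results turn. These are Psmb3, the member that passed the test, Psmc5 and Psmd8, at the upper and lower end of the knockdown effects in batch 2, and Psmb5, which encodes the chymotrypsin-like catalytic subunit. The RefSeq windows (build GRCm38.p6, 250 bases before to 50 bases after the annotated start) covered 25 of the 31 members. The 250 bases before the start are printed 5′ to 3′ on the gene's own strand, with every match to the 8 motifs named in the next paragraph in capitals.
Psmb3 (chr11:97703184-97703433, plus strand): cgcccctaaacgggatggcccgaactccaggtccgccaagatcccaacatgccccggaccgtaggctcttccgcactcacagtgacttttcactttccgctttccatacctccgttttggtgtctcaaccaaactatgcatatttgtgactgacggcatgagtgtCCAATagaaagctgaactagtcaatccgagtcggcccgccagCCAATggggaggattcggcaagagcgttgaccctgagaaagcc
Psmc5 (chr11:106255935-106256184, plus strand): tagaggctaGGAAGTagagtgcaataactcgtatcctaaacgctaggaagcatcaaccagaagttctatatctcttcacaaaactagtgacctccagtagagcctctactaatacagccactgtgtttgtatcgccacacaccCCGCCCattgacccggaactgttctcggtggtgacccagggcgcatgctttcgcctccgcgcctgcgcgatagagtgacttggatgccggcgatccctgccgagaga
Psmd8 (chr7:29180674-29180923, minus strand): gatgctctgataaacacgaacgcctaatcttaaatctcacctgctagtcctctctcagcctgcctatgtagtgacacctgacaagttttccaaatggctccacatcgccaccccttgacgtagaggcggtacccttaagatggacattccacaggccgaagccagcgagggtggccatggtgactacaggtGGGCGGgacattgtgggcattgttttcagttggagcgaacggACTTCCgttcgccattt
Psmb5 (chr14:54617996-54618245, minus strand): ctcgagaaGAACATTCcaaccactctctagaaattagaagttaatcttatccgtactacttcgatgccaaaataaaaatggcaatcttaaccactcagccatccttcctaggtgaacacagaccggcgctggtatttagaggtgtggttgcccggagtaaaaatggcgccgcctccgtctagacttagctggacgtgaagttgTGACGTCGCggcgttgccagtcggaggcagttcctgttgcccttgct

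The motifs were searched on both strands of the whole windows. The letters TGACNNNGC, the core of the antioxidant response element through which Nfe2l1 and Nfe2l2 act, were present in 4 of the 25 members (16%), against 14.0% of the 27025 genes with a window. GGAAGT, a core bound by Ets factors, was in 14 members (56.0%, against 26.5% of all genes), and GGGCGG, the core of Sp1 sites, in 15 members (60%, against 38.2%, or 49.2% of the protein-coding genes). CCAAT, the core of NF-Y sites, was in 10 members (40.0%, against 41.1%). The heat shock element cores GAANNTTC and TTCNNGAA were each in 1 member (4.0%, against 9.0% and 9.6%), as was the E-box CACGTG (4.0%, against 8.1%), and the cyclic AMP response element TGACGTCA was in 0 (against 2.0%). In Psmc2 a CCAAT match overlapped a GGAAGT match, the only overlap between different motifs among the members. A match is a description of these letters only, and base composition was not matched between the members and the other genes.

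The stretches around TGACNNNGC are shown because they let the 4 genes that hold these letters be compared. The capitals mark the match, which in Psmc6 and Psmd12 lies on the opposite strand.
Psmb5 (chr14:54618024-54618053, minus strand): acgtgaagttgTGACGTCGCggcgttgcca
Psmb6 (chr11:70525337-70525366, plus strand): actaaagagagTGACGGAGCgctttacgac
Psmc6 (chr14:45329586-45329615, plus strand): gccagccagtaGCTAAGTCAggcattgctc
Psmd12 (chr11:107479278-107479299, plus strand): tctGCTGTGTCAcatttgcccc
The log2 fold changes of these 4 genes in culture batch 2, given without a test, were 0.86, 0.75, 0.67 and 0.84 in the order shown, close to or below the median over all 31 members (0.86).

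The libraries held 17612820 to 27705076 counts each. Hgs was lower in every shHrs library than in every shCTL library of its batch or of the tumours: 30.4 to 44.5 CPM (counts per 1000000 counts, after scaling) against 95 to 113 CPM in the cultures, and 16.1 to 29.1 CPM against 95.8 to 112 CPM in the tumours. The 7 melanoma markers were detected in every group, with a summed level of 4330 to 5218 CPM in the shHrs libraries of culture batch 2 and of 8126 CPM or more in all other libraries. Of 17 leukocyte markers in the table, 16 had a mean below 1 CPM in each culture group. The summed level of the 17 was 2.20 to 29.6 CPM in the cultures and 20.9 to 573 CPM in the tumours, so that the lowest tumour lay below the highest culture (shCTL replicate 2 of batch 1). In that culture 28.8 CPM of the sum came from Cd68 alone, which was at 8.90 CPM in the lowest tumour (shCTL replicate 3). C1qa and C1qb were at 0 CPM in that culture, against 3.3 and 3.9 CPM in that tumour. Tumour RNA is therefore a mixture of melanoma and host RNA, in which fewer melanoma cells and less RNA per cell cannot be told apart.

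Compared per kilobase of transcript (exons of the principal GENCODE M21 transcript), the members spanned a less than 10-fold range in each group. In the shCTL cultures of batch 2 the lowest mean was 33.8 CPM per kb for Psmd11, a cap subunit that clamps the cap to the core, and the highest was 327 CPM per kb for Psmd8, another cap subunit. In shCTL tumours the means ran from 38.5 CPM per kb for Psma2 to 256 CPM per kb for Psma7, both of the alpha ring. The length is that of the annotated transcript and not of the transcript these cells used, which was not measured.

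**Figure D1:**
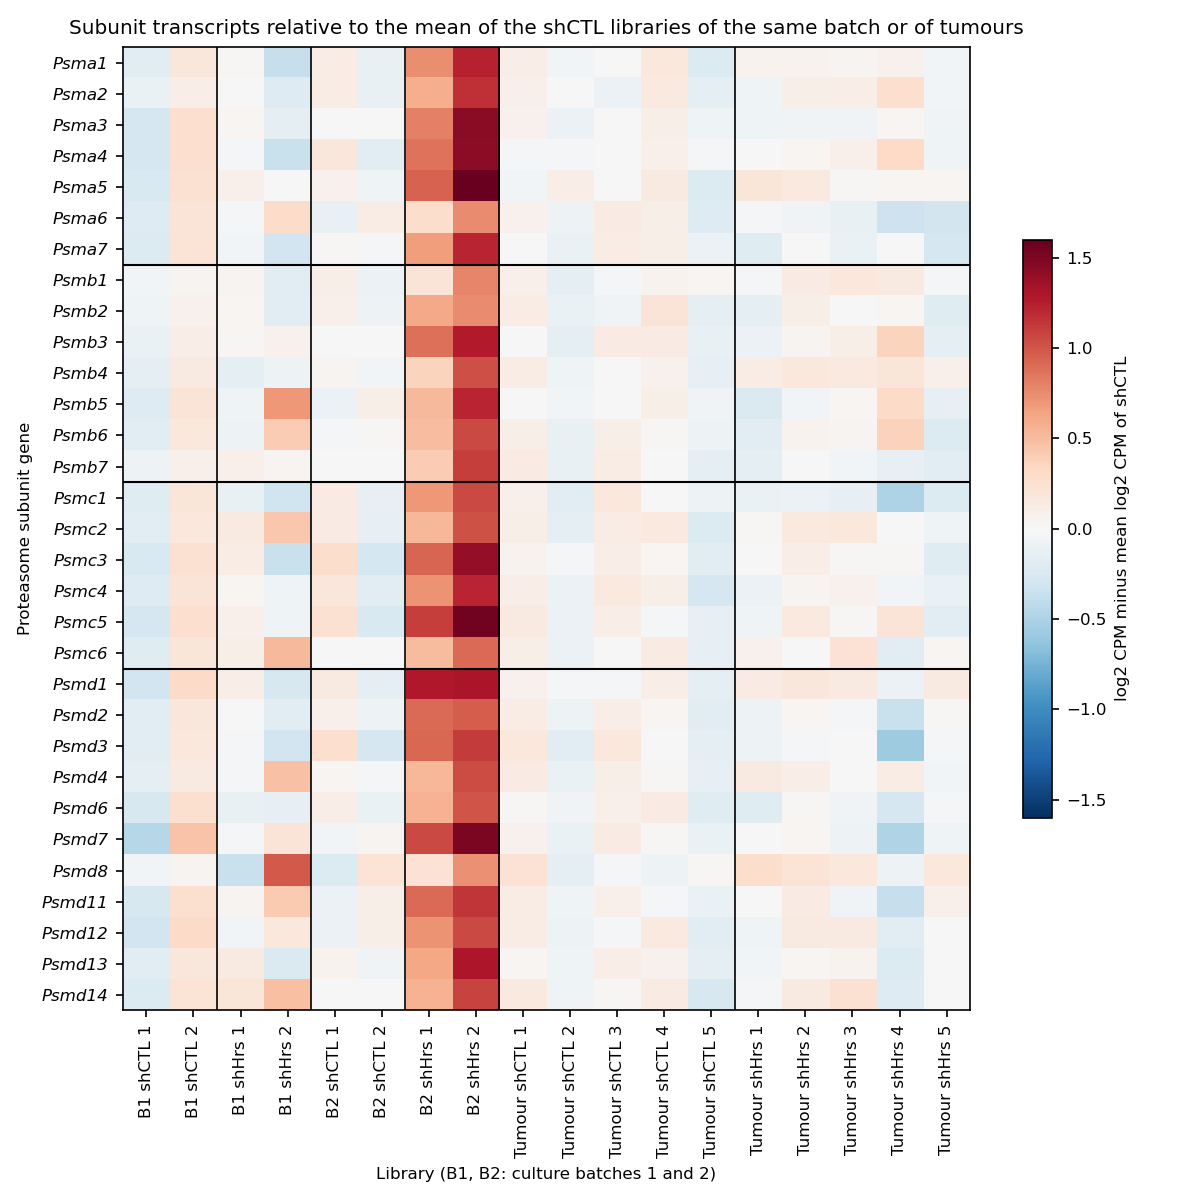
Heat map of the 31 subunit genes (rows, with lines between alpha ring, beta ring, ATPases and non-ATPase cap subunits) in the 18 libraries (columns), coloured by log2 CPM minus the mean log2 CPM of the shCTL libraries of the same culture batch or of the tumours. The 2 shHrs libraries of batch 2 are red in all 31 rows, with medians of 0.67 and 1.12, and the column of tumour shHrs replicate 4 is red in 12 of 14 core rows and blue in most cap rows.

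In culture batch 2 the whole set stood higher after Hgs knockdown. The summed level of the 31 genes was 5166 and 4872 CPM in the 2 shCTL libraries and 8009 and 10786 CPM in the 2 shHrs libraries, and their share of all counts went with it, at 0.558% and 0.525% against 0.816% and 1.04%. All 31 genes had a positive log2 fold change, against 47.3% of the 12897 genes tested, and all 31 were higher in both shHrs libraries than in both shCTL libraries, which 35% of the genes tested were. The median log2 fold change was 0.86, with a range from 0.44 to 1.27, against -0.05 over all genes tested and 0.06 over the 2262 genes whose mean CPM lay in the members' range. The effects were also alike among themselves, with an SD over the 31 genes of 0.226, against 0.710 over the genes in the members' CPM range and 1.05 over all genes tested.

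The test across all genes called far fewer of them. With edgeR's quasi-likelihood test and Benjamini-Hochberg adjustment, 1 of the 31 members, Psmb3, passed an adjusted p of 0.05 upwards, where 1.6% of all genes passed upwards and 2.43% downwards. At an unadjusted p below 0.05 the count was 28 of 31, against 13% of all genes in the same direction. The adjusted p of the other members started at 0.0504 for Psma5. The number called differed between fits: it was 19 with DESeq2 (which called 15.4% of all genes in either direction), 4 with limma voom (5% of all genes) and 28 when the 4 libraries of the batch were fitted alone (34.1% of all genes), where the edgeR fit called 4.03%. Without any 1 of these 4 libraries 1 arm holds a single library, whose spread is taken from the other groups, so calls there are not given. The median log2 fold change of the members was 0.67 to 1.04 over the fits that left out 1 culture library. In the same 2 shHrs libraries the summed level of the melanoma markers was less than that of the shCTL libraries of the batch (4330 to 5218 CPM against 11573 to 13846 CPM). Pmel, Tyr, Tyrp1 and Dct were lower in both shHrs libraries than in both shCTL libraries, as were 34.7% of all genes tested. Mlana was at 270 and 351 CPM in shHrs against 530 and 247 CPM in shCTL. Mitf was at 209 and 147 CPM against 185 and 135 CPM, and Sox10 at 521 and 489 CPM against 550 and 402 CPM. These 3 markers thus overlapped between the groups. The part of the melanoma markers in the result was not tested.

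Among the 7 alpha subunits, which form the outer rings and the gate of the core, the median log2 fold change in batch 2 was 0.96. Psma5 was at 69.3 and 63.2 CPM in shCTL and at 128 and 198 CPM in shHrs, a log2 fold change of 1.25 (SE 0.283, edgeR adjusted p = 0.0504). Psma6 had the smallest difference of the ring, with 135 and 159 CPM against 178 and 247 CPM (log2 fold change 0.49, 95% interval -0.11 to 1.08). Both genes were higher in shHrs replicate 2 than in replicate 1, as were the other members of the set.

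The 7 constitutive beta subunits had a median log2 fold change of 0.74 in batch 2. Psmb3 (chr11:97703399-97713500 in GRCm38, plus strand), a structural subunit of the inner ring, had 158 CPM in each shCTL library and 292 and 381 CPM in the shHrs libraries. Its log2 fold change was 1.04 (SE 0.225, edgeR adjusted p = 0.0452), and its unadjusted p was the smallest of the set. Without any 1 of the 4 libraries of batch 2, where an arm holds 1 library, its log2 fold change was 0.89 to 1.21. The call did not hold without shCTL replicate 1 or 2 of batch 1, which enter only the shared spread. Psmb1, also structural, was at 185 and 162 CPM in shCTL and at 200 and 299 CPM in shHrs (log2 fold change 0.47, 95% interval -0.11 to 1.05).

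The point estimates of the 3 catalytic subunits lay between 0.74 and 0.86. Psmb5, the chymotrypsin-like subunit, was at 116 and 132 CPM in shCTL and at 178 and 287 CPM in shHrs (log2 fold change 0.86, SE 0.327, edgeR adjusted p = 0.136). Psmb6, the caspase-like subunit, was at 162 and 167 CPM against 232 and 341 CPM (0.75, SE 0.271, adjusted p = 0.122). Psmb7, the trypsin-like subunit, was at 162 and 163 CPM against 217 and 349 CPM (0.74, SE 0.260, adjusted p = 0.113). For all 3 both shHrs libraries lay above both shCTL libraries, as for 35% of all genes tested. The 95% intervals of the log2 fold change lay above 0, at 0.11 to 1.61, 0.13 to 1.37 and 0.15 to 1.34. None of the 3 passed the adjusted threshold.

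The 6 ATPases of the cap, which unfold substrates and open the gate, had a median log2 fold change of 0.88. Psmc5 (chr11:106256154-106263120, plus strand) had the largest point estimate of the 31 genes, with 156 and 111 CPM in shCTL and 285 and 386 CPM in shHrs (1.27, SE 0.296, edgeR adjusted p = 0.0526). Psmc1 was at 278 and 233 CPM against 411 and 527 CPM (0.83, SE 0.254, adjusted p = 0.0875). All 6 had a positive value with an unadjusted edgeR p below 0.05, as did 13% of all genes tested.

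The 11 non-ATPase subunits of the cap had a median log2 fold change of 0.89 and held the smallest effect of the set. Psmd1, a scaffold of the cap, was at 181 and 147 CPM in shCTL and at 397 and 402 CPM in shHrs (1.24, SE 0.286, edgeR adjusted p = 0.0518), and unlike most members it was nearly level between the 2 shHrs libraries. Psmd7, the partner of the deubiquitinase Psmd14, was at 115 and 122 CPM against 246 and 337 CPM (1.24, SE 0.325, adjusted p = 0.0661). Psmd8 (chr7:29174188-29180701, minus strand) had the smallest estimate, with 428 and 580 CPM against 584 and 826 CPM (0.44, 95% interval -0.48 to 1.35), so that its higher shCTL value nearly reached its lower shHrs value.

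**Figure D2:**
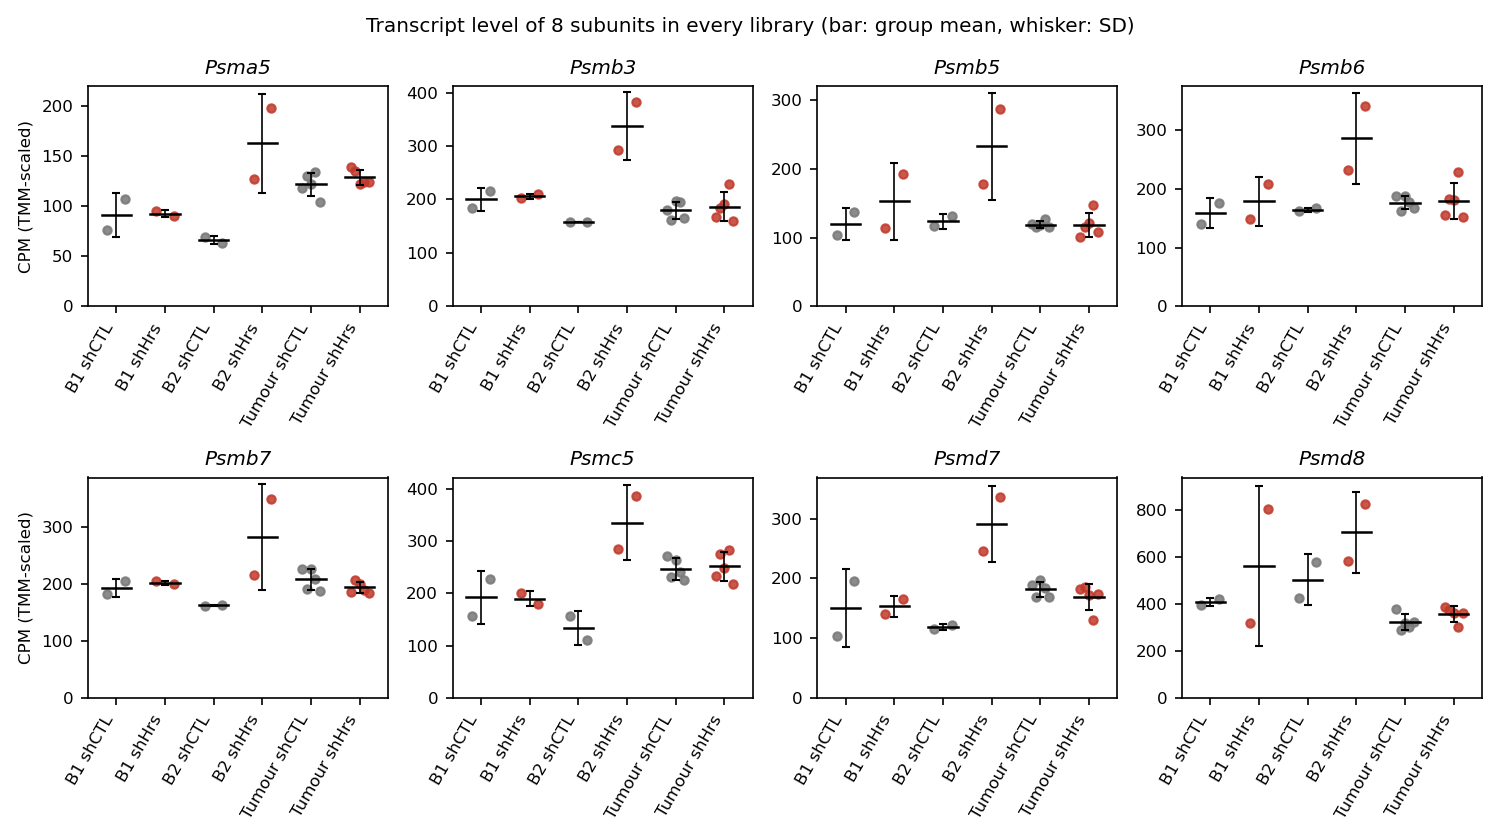
CPM (vertical axes, from 0) of 8 subunits in every library, with shCTL in grey and shHrs in red, horizontal bars for the group means and whiskers for the SD (n = 2 in each culture group, n = 5 in each tumour group). In batch 2 both red points lie above both grey points in all 8 panels, in batch 1 and in tumours the colours overlap, and Psmd8 has 1 batch 1 shHrs library at 805 CPM.

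Culture batch 1 did not show this pattern. The summed level of the set was 5139 and 6654 CPM in shCTL and 5811 and 6226 CPM in shHrs, so that both shHrs libraries lay between the shCTL libraries. Of the 31 genes 14 had a positive log2 fold change, against 50.6% of all genes tested, and the median was -0.05, with a range from -0.24 for Psmc1 to 0.44 for Psmd8. With edgeR 0 of 31 passed the adjusted threshold and 0 had an unadjusted p below 0.05, where 3.43% of all genes did with a positive and 5.95% with a negative value. The share of all genes called by edgeR was 0% in either direction. DESeq2 (1.7% of all genes called) and limma voom (0%) also called 0 members. In 0 of the 31 genes did the shHrs libraries lie wholly above or wholly below the shCTL libraries, where 15.3% and 16.8% of all genes did.

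The controls of batch 1 differed from each other across the whole set. All 31 genes were higher in shCTL replicate 2 than in shCTL replicate 1, each being 0.04 to 0.46 log2 units from the mean of the pair. Psmd7 was at 104 and 196 CPM in these 2 controls and at 141 and 165 CPM in the shHrs libraries. Without shCTL replicate 2 the batch 1 median was 0.19 and 29 of 31 genes were positive, and without shCTL replicate 1 only 6 were positive, so that the direction in this batch rested on which control was used.

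Within batch 1 shHrs replicate 2 stood apart for some members. Psmd8 was at 805 CPM in it, against 320 CPM in shHrs replicate 1 and 396 and 421 CPM in shCTL, and its log2 fold change of 0.44 became -0.33 without that library. Psmb5 was at 192 CPM in the same library, against 114 CPM in its partner and 103 and 137 CPM in shCTL. Most alpha subunits went the other way there, with a median 0.21 log2 units below the control mean, but Psma6 was 0.29 above it. Some other members were lower too, such as Psmc1 (-0.32) and Psmc3 (-0.35). The library thus did not differ from the others by a common factor over the set.

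**Figure D3:**
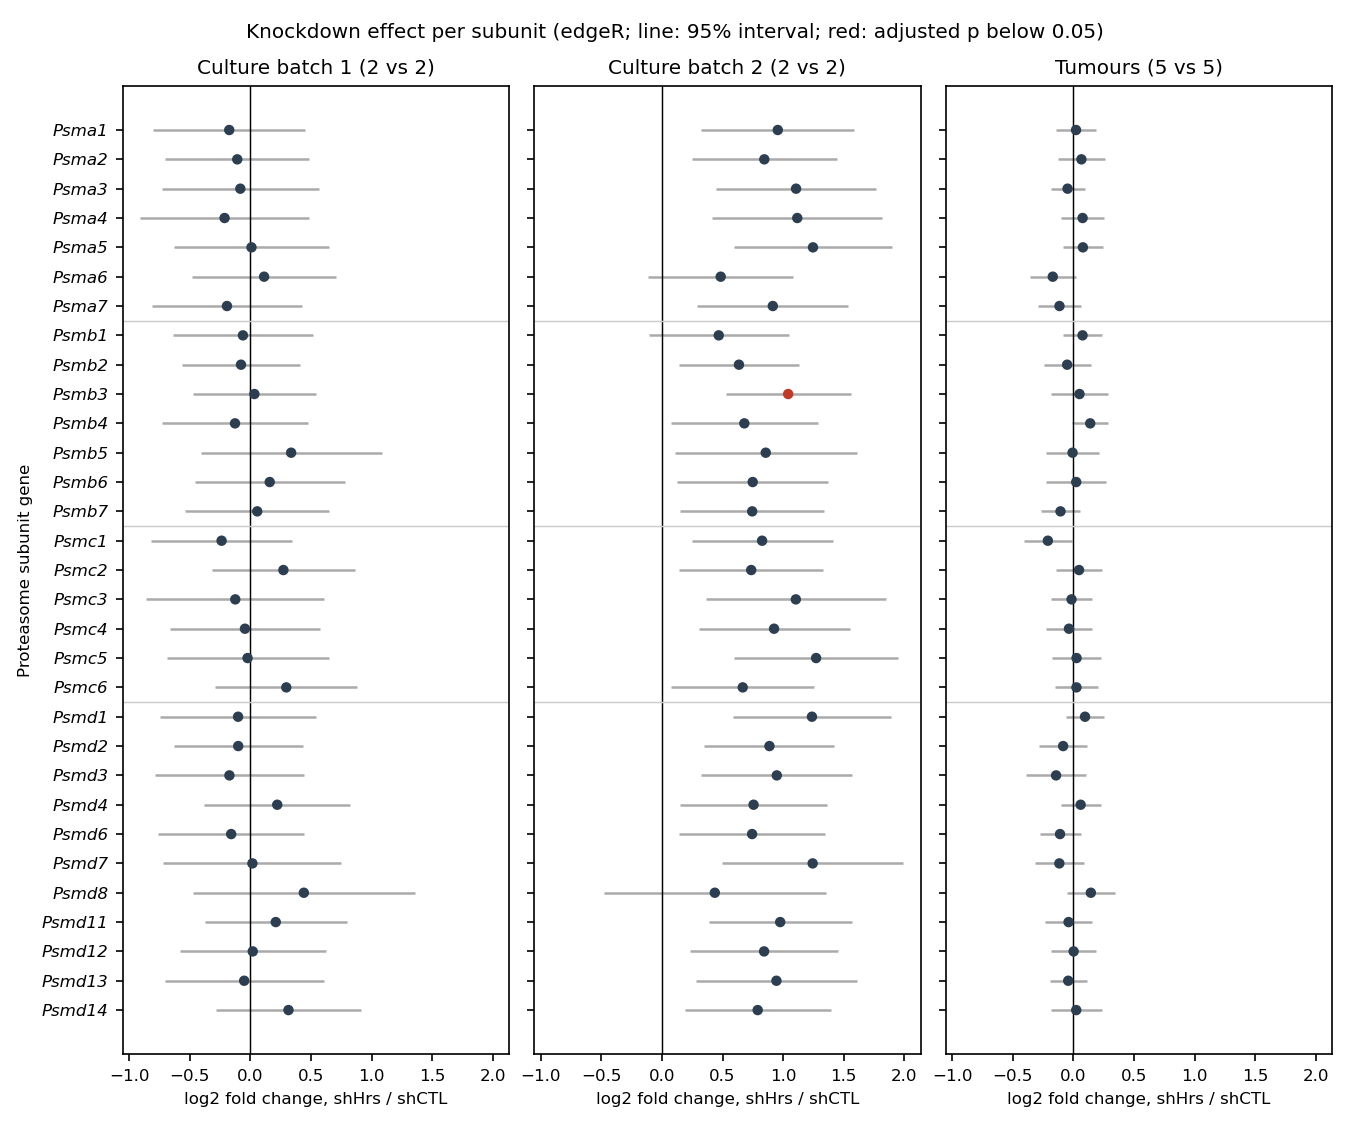
Log2 fold change of shHrs over shCTL (horizontal axes) for each of the 31 subunits (rows) in culture batch 1, culture batch 2 and tumours, as points with 95% intervals from edgeR, in red where the adjusted p was below 0.05 (Psmb3 in batch 2). The points scatter about 0 in batch 1, lie between 0.44 and 1.27 in batch 2, and lie between -0.21 and 0.14 with short intervals in tumours.

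The 2 batches were compared directly, as the batch 2 effect minus the batch 1 effect. The difference was above 0 for 30 of 31 members, against 48.1% of all genes, with a median of 0.95. Psmd1 had the largest value (1.34, SE 0.400, edgeR adjusted p = 0.138) and Psmd8 the smallest (-0.004, 95% interval -1.30 to 1.29). With edgeR 0 of 31 passed the adjusted threshold, where 0.132% of all genes passed upwards and 0.0233% downwards. The count at an unadjusted p below 0.05 was 18 of 31, against 9.73% of all genes, and DESeq2 called 1 member (7.55% of all genes) and limma voom 0 (0.101%). A p that misses the threshold does not show that the batches were alike, and what differed between them besides the label cannot be told apart from the batch.

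With both batches in one additive fit, all 31 members had a positive log2 fold change, against 48.3% of 12617 genes. The values ran from 0.20 (SE 0.199) for Psmb1 to 0.63 (SE 0.313) for Psmd7. With edgeR 0 passed the adjusted threshold, as did 0% of all genes in either direction, and 7 members had an unadjusted p below 0.05, all of them positive, against 5.73% of all genes with a positive and 7.59% with a negative value. DESeq2 (2.39% of all genes called) and limma voom (0.0396%) called 0 members too. The common estimate averages a batch with a median of -0.05 and one with a median of 0.86.

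In tumours the set was level between the groups. The summed level was 6247, 5509, 6133, 6121 and 5359 CPM in the 5 shCTL tumours and 5793, 6150, 6033, 5700 and 5631 CPM in the 5 shHrs tumours, so that all shHrs values lay within the shCTL range. Of the 31 genes 16 had a positive log2 fold change, against 51.5% of all genes, and the median was 0.00. With edgeR 0 of 31 passed the adjusted threshold, where 0.235% of 13215 genes passed upwards and 0.31% downwards. At an unadjusted p below 0.05 the count was 1 (Psmc1, lower), against 6.96% of all genes upwards and 7.17% downwards. DESeq2 (3.94% of all genes called in either direction) and limma voom (0.59%) called 0 members. In 0 members were the groups separated, against 2% of genes upwards and 2.28% downwards.

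The tumour comparison, with 5 libraries a group, gave narrow intervals. All 31 of the 95% intervals lay between -0.41 and 0.34 on the log2 scale, and the SD over the 31 log2 fold changes was 0.089, against 0.189 over the 2263 genes in the members' CPM range and 0.357 over all genes tested. Psmc1, an ATPase of the cap, was the lowest: 263, 222, 280, 250 and 235 CPM in shCTL and 232, 234, 228, 177 and 214 CPM in shHrs (log2 fold change -0.21, SE 0.0907, edgeR adjusted p = 0.325). Its groups overlapped, since 3 of the 5 shHrs tumours exceeded the lowest shCTL tumour.

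At the other end, Psmd8 was at 378, 289, 318, 303 and 325 CPM in shCTL tumours and at 389, 374, 362, 304 and 361 CPM in shHrs tumours (0.14, SE 0.0900, edgeR adjusted p = 0.528). In the core, Psmb4, a structural beta subunit, was at 232 to 275 CPM against 268 to 289 CPM (0.14, SE 0.0671, adjusted p = 0.388), and Psma6 was at 124 to 157 CPM against 114 to 142 CPM (-0.17, SE 0.0861, adjusted p = 0.414). Neither separated the groups.

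The catalytic subunits were close to 0 in tumours. Psmb5 was at 119, 116, 119, 127 and 115 CPM in shCTL and at 101, 115, 121, 148 and 108 CPM in shHrs (log2 fold change -0.01, 95% interval -0.22 to 0.21). Psmb6 was at 188, 163, 188, 179 and 167 CPM against 155, 184, 181, 229 and 152 CPM (0.02, 95% interval -0.22 to 0.27), and Psmb7 was at 188 to 227 CPM against 185 to 208 CPM (-0.11, 95% interval -0.27 to 0.06). The signs of the Psmb5 and Psmb6 values turned under some scalings or when single tumours were left out, so neither has a direction.

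Tumour shHrs replicate 4 had another balance between core and cap than the rest. Relative to the mean of the shCTL tumours, 12 of its 14 core genes were higher, with a median of 0.10 log2 units, but only 4 of its 17 cap genes were, with a median of -0.18. The extremes were Psmb6 at 0.37 and Psmb3 at 0.36 on the high side and Psmd3 at -0.56, Psmc1 at -0.50 and Psmd7 at -0.48 on the low side. In the other 9 tumours the medians of core and cap differed by less than this. The same tumour had the highest summed leukocyte markers, at 573 CPM against 20.9 to 301 CPM in the others. It also had the highest summed skeletal muscle markers (637 CPM) and endothelial markers (145 CPM). Its fibroblast, erythroid and keratinocyte markers were not the highest. The part of these host markers in its subunit levels was not tested. Without this tumour 0 members passed the test, as with it.

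**Figure D4:**
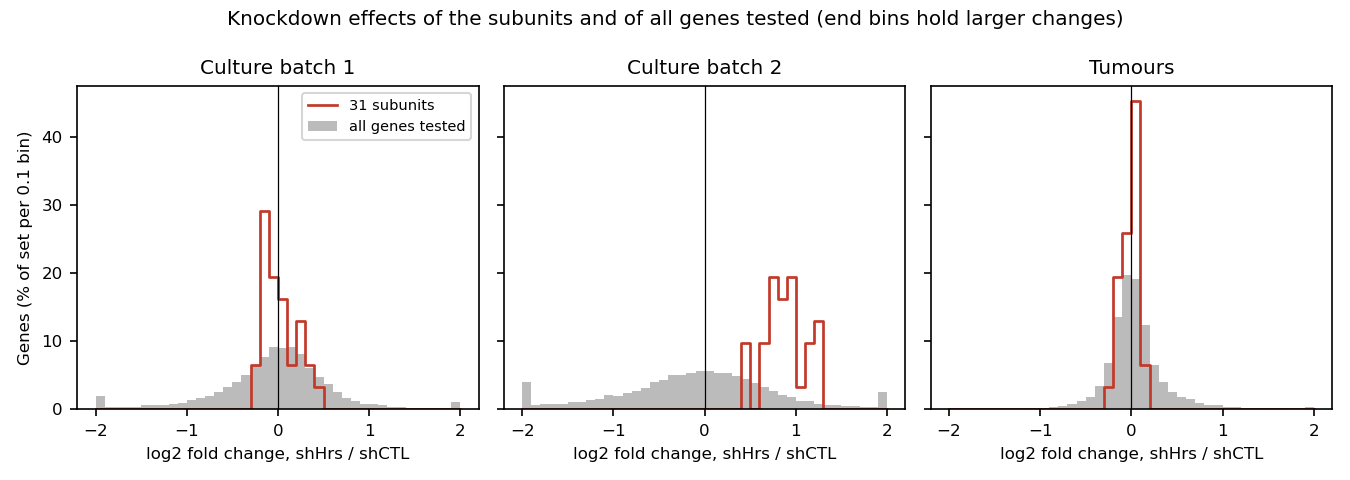
Share of genes per bin of 0.1 log2 units (vertical axis) by log2 fold change of shHrs over shCTL (horizontal axis), for all genes tested (grey bars) and the 31 subunits (red line), with larger changes gathered in the end bins. In batch 2 the red line lies wholly above 0.4 while the grey bars centre near 0. In batch 1 and in tumours the red line covers a narrow range around 0 and rises above the grey bars in several bins.

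A fit over all 18 libraries compared the tumour effect with the mean of the 2 culture effects. The difference was negative for all 31 members, whereas it was positive for 51.2% of all genes, with a median of -0.50 and a range from -0.77 (SE 0.227, edgeR adjusted p = 0.0673) for Psmd7 to -0.15 (SE 0.161, adjusted p = 0.655) for Psmb1. With edgeR 0 of 31 passed the adjusted threshold, where 1.49% of 14458 genes passed downwards and 2.12% upwards. The count at an unadjusted p below 0.05 was 26, all of them negative, against 10.7% of all genes downwards and 10.3% upwards, while DESeq2 called 10 members (9.65% of all genes in either direction) and limma voom 0 (3.18%). Leaving out 1 library at a time gave 0 to 13 called members, the highest count without shCTL replicate 2 of batch 1, where 8.53% of all genes were called. The culture side of the value is the mean of the 2 batch effects, and tumours and cultures differ in cell makeup, growth and library set, which cannot be told apart.

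The regulators and partners of the proteasome gave mixed values. Over all genes tested 47.3% were positive in batch 2, where 1.6% passed upwards and 2.43% downwards. In tumours 0.235% passed upwards and 0.31% downwards. At such shares 0 calls in lists this short is not informative. Of 10 assembly chaperones in the table, which help to build the core and cap, 9 had a positive log2 fold change in batch 2 and 0 passed the test, with a median of 0.42. Pomp, which matures the beta subunits, was at 81.9 and 58.2 CPM in shCTL and at 103 and 165 CPM in shHrs (0.88, SE 0.341, edgeR adjusted p = 0.140). Of 5 other activators and inhibitors all had positive values, with a median of 0.37 and 0 called. In tumours 0 of the 10 chaperones and 0 of these 5 genes passed the test, with medians of -0.08 for both.

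Of 12 proteasome-bound deubiquitinases, ligases and ubiquitin shuttles, 6 had positive and 6 negative values in batch 2, with a median of -0.004. Of all genes 47.3% were positive and 1.6% passed upwards. The 1 of the 12 that passed was Zfand2a, a stress-induced cofactor of the cap, at 27.1 and 28.1 CPM in shCTL and at 77.3 and 68.3 CPM in shHrs. It rose by a log2 fold change of 1.35 (SE 0.290, edgeR adjusted p = 0.0447). Without any 1 of the 4 libraries of the batch, which leaves an arm of 1 library, the value was 1.25 to 1.49. The same list had 0 calls in batch 1 and in tumours, where 0% and 0.545% of all genes were called in either direction.

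Genes of the Nfe2l1 pathway, from the factor to the enzymes that release and process it, were divided. In batch 2 6 of 10 had positive values, against 47.3% of all genes. The test was passed by 0 of them, against 1.6% of all genes upwards and 2.43% downwards. Nfe2l1 itself was at 567 and 684 CPM in shCTL and at 426 and 364 CPM in shHrs, a log2 fold change of -0.71 (SE 0.325, edgeR adjusted p = 0.197). Vcp, the segregase that extracts Nfe2l1 and other substrates from membranes, was at 632 and 435 CPM against 1308 and 1384 CPM (1.28, SE 0.304, adjusted p = 0.0539), a size like that of Psmc5. Nfe2l1 is known to be activated by cleavage of its protein, which RNA levels do not show.

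In tumours 1 of the 10 passed, downwards, where 0.31% of all genes did. This was Nfe2l2, which encodes the oxidative stress factor Nrf2. It was at 105, 112, 111, 109 and 105 CPM in shCTL and at 86.2, 75.3, 85.5, 60.6 and 72.1 CPM in shHrs. It was lower in 5 of 5 shHrs tumours than in any shCTL tumour, as were 2.28% of all genes. It fell by 0.52 on the log2 scale (SE 0.0891, edgeR adjusted p = 0.0259). Of the 10 values 7 were negative in this comparison, where 51.5% of all genes were positive. The call did not hold in 7 of the 10 fits that left out 1 tumour, with an edgeR adjusted p of up to 0.0916. Nfe2l2 was also lower in both shHrs than in both shCTL libraries of culture batches 1 and 2, as were 16.8% and 34.7% of all genes. Its log2 fold changes there were -0.29 and -0.48. The tumour effect minus the mean culture effect was -0.16 (SE 0.143, edgeR adjusted p = 0.587).

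The other subunits that are no members were Adrm1 and Sem1 of the cap, and Psma8 and Psmb11, known from testis and thymus. Adrm1, a ubiquitin receptor, was at 141 and 153 CPM in batch 2 shCTL and at 257 and 307 CPM in shHrs (0.89, SE 0.270, edgeR adjusted p = 0.0857). Sem1, listed under its older symbol Shfm1, had a log2 fold change of -0.04 in both culture batches and 0.03 in tumours. Psma8 and Psmb11 had 0 to 3 counts in every library and were not tested. In the comparison of tumour and culture effects, Adrm1 (-0.75, SE 0.187, adjusted p = 0.0391) and Vcp (-0.75, SE 0.194, adjusted p = 0.0448) passed the threshold.

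The inducible immunoproteasome subunits replace the catalytic ones when they are induced. Psmb8 had 0 counts in 6 of the 8 culture libraries and 1 and 11 counts in the batch 2 shHrs libraries, and Psmb9 had 1 to 6 counts in all 8. In tumours Psmb8 ran from 1.46 to 176 CPM and Psmb9 from 1.76 to 121 CPM, each with its highest value in shHrs replicate 4 and its lowest in shCTL replicate 3, the tumours with the highest and the lowest leukocyte markers. Psmb10 was at 7.20 and 6.84 CPM in batch 2 shCTL and at 17.8 and 29.8 CPM in shHrs (1.71, SE 0.492, edgeR adjusted p = 0.0777). In tumours 0 of the 5 genes of this list passed the test, where 0.545% of all genes did in either direction. Their log2 fold changes were 0.10 to 0.59.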

How the data were processed

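RNA-seq was analysed from 18 libraries in 6 groups. The authors deposited 1 table of raw counts for 23453 gene symbols. The submitters' processing notes name STAR (version 2.4.0h2), DESeq and build mm10. How counts were made (tool, annotation, strand) is not given in the sources used here. Overlapping genes, antisense genes and processed pseudogenes may therefore share counts with a member. CPM were scaled by TMM factors over all 18 libraries. edgeR (version 4.0.16, R 4.3.3) quasi-likelihood tests, after filterByExpr with a minimum count of 10 and with Benjamini-Hochberg adjustment over all genes (threshold 0.05), compared shHrs with shCTL. Both culture batches shared 1 fit, with batch as an additive term or with a mean per batch and treatment. Tumours were fitted alone, and all 18 libraries together for the difference between tumour and culture effects. Standard errors are the log2 fold change divided by the root of F. The code was tested on simulated data. Alternatives were DESeq2 (1.42.0), limma voom (3.58.1), other scalings, no filter, other sets of libraries, a replicate block, a leukocyte covariate and leaving out each library. Counts of same-group libraries differed beyond sampling noise (chi-square per degree of freedom 14.5 to 220).

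The members, gene lists and tests were chosen with earlier results of these data known. The text names, with values, each member past the threshold, the highest and lowest member of each comparison, the catalytic subunits, the largest change of each complex part in batch 2 and in tumours, each listed pathway gene past the threshold, and Nfe2l1, Pomp, Psmb8, Psmb9, Psmb10 and Hgs. Values of Psma1, Psma3, Psma4, Psmd3 and Sem1 were added after they were seen. Values of Psma2, Psma7, Psmc3, Psmc6, Psmd11 and Psmd12 are also given outside this rule. Symbols were taken from the table, with older symbols matched through RefSeq. Paaf1 was not matched. Depth was 17612820 to 27705076 counts a library.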

Additional observations from a re-analysis of the deposited data

Results flagged for a closer look

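The 31 members, Hgs and the mean level of the members were examined in each tumour group, 66 sets of 5 tumours in all, and 6 of them held 1 library far from the other 4 by Dixon's criterion, where chance gives about 1 in 20. Of these, 4 concerned tumour shHrs replicate 4. Psma3 was highest there, at 244 CPM, and Psmd1, Psmd3 and Psmd7 were lowest there, at 233, 153 and 130 CPM. Psma4 was highest in shCTL replicate 4, at 158 CPM, and Psma1 was lowest in shHrs replicate 5, at 145 CPM.

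The knockdown effect differed between tumours and cultures by a test of the difference for Hgs, Adrm1 (-0.75) and Vcp (-0.75). For Hgs the difference was -0.82 on the log2 scale (SE 0.206, edgeR adjusted p = 0.0407). Whether this Hgs call holds when libraries are left out was not examined. The Adrm1 and Vcp calls were lost in most of the fits that left out 1 library, with values of -0.95 to -0.61 (adjusted p up to 0.112) for Adrm1 and of -0.91 to -0.62 (adjusted p up to 0.123) for Vcp.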

How the results depend on the processing

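In culture batch 2 all 31 members were positive in every alternative run, with medians of 0.67 to 1.04, but the number called differed; the share of all genes called in either direction stands in brackets. It was 2 with RLE size factors (4.1%), 4 with upper-quartile factors (4.26%), 4 with limma voom (5%), 19 with DESeq2 (15.4%), 18 without the filter (12.6%), 28 with the 4 libraries alone (34.1%) and 29 with all 18 libraries in 1 fit (24.3%). Leaving out 1 library gave 0 to 22 (20.4% of all genes at the highest), and those of these alternatives that left out a batch 1 library were chosen after seeing the data. Correlations of same-numbered deviations from the group mean were 0.18 and 0.02 in the culture batches and of both signs in tumours, from -0.59 to 0.46. With 2 libraries an arm, swapping the replicate numbers only turns the sign, so the culture values cannot settle whether the numbers pair the libraries. With the number as a replicate block the batch 2 count was 0 (3.6%), with Psmb3 at an edgeR adjusted p of 0.0634. Nfe2l2 in tumours was then at 0.135 (0.0151%) and Vcp in the tumour and culture comparison at 0.0954 (2.58%). Every other count of called members was as without the block. The cause of these shifts was not tested.

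For the difference between batches the count was 1 with DESeq2 (7.55%), 3 without the filter (7.45%) and 20 with all 18 libraries (14.3%). When 1 library was left out, the median difference of the members was 0.68 to 1.13. For both batches together the count was 21 with all 18 libraries (14.8%). For tumours against cultures it was 1 with upper-quartile factors (3.75%), 10 with DESeq2 (9.65%) and 0 to 13 when 1 library was left out. The batch 1 median ranged from -0.23 to 0.19. In batch 1 and in tumours 0 members were called in any alternative with 2 or more libraries in each arm. The share of all genes called in these was at most 2.49% in batch 1 (without the filter) and 3.94% in tumours (DESeq2).

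Some signs turned. For Psmd8 the difference between batches was 0.025 with RLE, 0.025 with DESeq2, 0.0253 with all 18 libraries, 0.0352 with upper-quartile factors, 0.0344 without the filter, 0.13 with voom, 0.13 with the replicate block and -0.47 to 0.77 when 1 library was left out, and its batch 1 value, 0.44 with all libraries, was -0.33 to 0.93. In tumours Psmb5 was 0.00625 with upper-quartile factors, 0.0230 with total counts and -0.107 to 0.0532 when 1 tumour was left out, and Psmb6 was -0.0198 with the leukocyte covariate and -0.0876 to 0.0808 when 1 tumour was left out. The members had a mean of 95.1 CPM or more over all libraries.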
